A study of Mus musculus with 13 samples.

Results

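H3K4me3 and H3K27me3 called peaks of neural stem cells (NSCs) were compared at gene promoters. A promoter was the window from 2 kb before to 2 kb after the transcription start site (TSS), 4001 bp in all. The 5′-most TSS of each protein-coding and long non-coding RNA (lncRNA) gene of GENCODE release M21 was used, and genes of other types were left out. Every called peak of the deposited lists was used, and a gene had a mark when at least 1 bp of a called peak lay in its window. Of 35312 genes, 17798 had a called peak of either mark in NSCs. These 17798 genes rest on 2 of the 13 libraries of the series and on 69361 of its 151486 histone peaks.

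The series followed NSCs, oligodendrocyte precursor cells (OPCs) and newly formed oligodendrocytes (NFOs) by ChIP-Seq, in which sonicated chromatin is precipitated with an antibody and the DNA is sequenced. NSCs were cultured cells bought from R&D Systems, taken from the cortices of CD-1 mice at E14.5, grown on poly-d-lysine in MEM/F12 with EGF and FGF at 20 ng/ml, B27 and N2, and not treated further. The strain label gives C57BL/6 for the same cells, and which is right cannot be told here. OPCs and NFOs, which enter only the last comparison, were immunopanned from the brains of C57BL/6 mice at postnatal day 7. The labels name no transgene for any of them, and each mark has 1 library per cell type. The antibody named in the labels of the NSC libraries is that of the other mark, for both libraries, and so it is in OPCs and NFOs. The marks are named here by the library titles. The library titled H3K4me3 had a called peak at most promoters of housekeeping genes, and the library titled H3K27me3 at the promoters of all 39 Hox genes, as given below. With 1 library per mark no test between conditions was possible, and intervals are exact binomial (Clopper-Pearson) 95% intervals that cover counting error only. Where genes are counted, the intervals treat them as independent, although neighbours can share a called peak, and are then too narrow. The number of reads behind a called peak is unknown.

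H3K4me3 is set at the starts of active and poised genes by the SET1 and MLL (trithorax-group) methyltransferases. H3K27me3 is set by Polycomb repressive complex PRC2 and spreads over genes that are held silent, classically the Hox clusters. A promoter that carries both is called bivalent, a state known from stem cells and best known at genes that pattern the embryo. CpG-rich promoters are bound by proteins of both systems. In a population of cells, both marks at a promoter may sit on the same nucleosomes, on different alleles or in different cells, which these libraries cannot tell apart.

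The 250 bases before the TSS are shown for a pair of genes of each state, to let a reader see the CpG content that goes with the marks. Sequences are from RefSeq on GRCm38.p6, 5′ to 3′ on the strand of the gene, which is the minus strand for all of them, and capitals mark each CpG. They belong to the genes of the family lists with the most base pairs of the marks of the state, or, for neither mark, the first by name among the keratins and olfactory receptors, where a RefSeq start lay within 50 bp of the TSS and no annotated exon lay in the bases shown. With H3K4me3 alone, the zinc finger gene Zfp266 (chr9:20521420-20521669) had 19 CpGs and Kmt2c (chr5:25498784-25499033), which encodes an MLL-family H3K4 methyltransferase, had 48.
Zfp266: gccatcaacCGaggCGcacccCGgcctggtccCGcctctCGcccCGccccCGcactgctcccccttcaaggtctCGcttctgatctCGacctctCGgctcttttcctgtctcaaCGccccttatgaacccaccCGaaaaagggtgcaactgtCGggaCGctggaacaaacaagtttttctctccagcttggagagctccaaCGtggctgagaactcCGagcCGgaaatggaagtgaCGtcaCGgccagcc
Kmt2c: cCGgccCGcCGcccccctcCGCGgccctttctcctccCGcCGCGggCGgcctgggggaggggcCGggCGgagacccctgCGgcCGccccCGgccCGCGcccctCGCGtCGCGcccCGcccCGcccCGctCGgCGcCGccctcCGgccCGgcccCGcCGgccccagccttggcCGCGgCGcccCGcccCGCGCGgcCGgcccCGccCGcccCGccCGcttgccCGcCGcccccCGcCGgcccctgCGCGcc
With both marks, Pou4f2 (chr8:78436648-78436897), a factor of retinal ganglion cells, had 17 CpGs and Msx1 (chr5:37824586-37824835), a homeobox gene of craniofacial and limb patterning, had 20.
Pou4f2: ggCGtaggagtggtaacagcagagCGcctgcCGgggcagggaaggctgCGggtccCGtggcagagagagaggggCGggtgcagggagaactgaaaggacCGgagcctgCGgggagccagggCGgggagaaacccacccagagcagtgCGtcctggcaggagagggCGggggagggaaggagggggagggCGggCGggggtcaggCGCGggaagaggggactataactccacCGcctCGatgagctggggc
Msx1: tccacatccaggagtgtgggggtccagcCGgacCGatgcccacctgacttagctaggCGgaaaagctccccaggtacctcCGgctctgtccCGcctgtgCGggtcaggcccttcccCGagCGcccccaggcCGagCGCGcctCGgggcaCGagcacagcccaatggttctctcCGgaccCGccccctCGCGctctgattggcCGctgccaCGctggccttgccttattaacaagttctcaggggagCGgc
With H3K27me3 alone, Nkx2-1 (chr12:56536909-56537158), which specifies the ventral forebrain, thyroid and lung, had 9 CpGs and Mnx1 (chr5:29478471-29478720), a motor neuron and pancreas factor, had 21.
Nkx2-1: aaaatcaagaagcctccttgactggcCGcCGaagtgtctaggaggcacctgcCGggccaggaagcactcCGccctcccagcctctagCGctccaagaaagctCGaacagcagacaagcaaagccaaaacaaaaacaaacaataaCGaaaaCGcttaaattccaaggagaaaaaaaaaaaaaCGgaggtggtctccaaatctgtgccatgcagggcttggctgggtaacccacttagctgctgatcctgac
Mnx1: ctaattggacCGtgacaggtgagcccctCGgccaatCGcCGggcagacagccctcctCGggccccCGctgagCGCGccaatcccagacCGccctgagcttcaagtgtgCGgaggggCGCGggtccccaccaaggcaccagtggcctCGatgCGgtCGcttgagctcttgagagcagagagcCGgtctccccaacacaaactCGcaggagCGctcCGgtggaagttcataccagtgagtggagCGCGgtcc
With neither mark, Krt13 (chr11:100121567-100121816), a keratin of stratified epithelia, had 2 CpGs and Olfr1024 (chr2:85905053-85905302), an odorant receptor gene, had 1.
Krt13: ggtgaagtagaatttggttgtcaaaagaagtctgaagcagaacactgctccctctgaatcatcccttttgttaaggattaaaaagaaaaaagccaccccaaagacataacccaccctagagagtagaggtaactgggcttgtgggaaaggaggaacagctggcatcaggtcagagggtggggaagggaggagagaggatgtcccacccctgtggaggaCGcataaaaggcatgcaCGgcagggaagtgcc
Olfr1024: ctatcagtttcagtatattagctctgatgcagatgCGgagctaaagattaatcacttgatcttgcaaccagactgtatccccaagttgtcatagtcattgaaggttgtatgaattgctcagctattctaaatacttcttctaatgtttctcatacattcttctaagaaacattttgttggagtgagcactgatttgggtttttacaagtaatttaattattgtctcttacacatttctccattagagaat

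Most marked promoters had H3K4me3 and no H3K27me3. H3K4me3 alone was found at 14359 genes, 40.7% of all genes (95% interval 40.2 to 41.2). Both marks were found at 2180 genes, 6.17% (5.92 to 6.43), and H3K27me3 alone at 1259 genes, 3.57% (3.37 to 3.76). Neither mark was found at 17514 genes, 49.6% of all. These 4 shares are the background over all genes. Of the 3439 genes with H3K27me3, 63.4% (61.8 to 65.0) also had H3K4me3, against 46.8% of all genes. H3K27me3 was found at 13.2% of the genes with H3K4me3 and at 6.71% of those without it. Where both marks were present, their called peaks overlapped each other inside the window at 1954 of the 2180 genes, or 89.6%. The definition of a bivalent gene in the Methods of the study, an overlap of the marks and no peak of a single mark, was applied here to whole called peaks, which may overlap outside the window. It was met by 1761 genes, of which 1553 had both marks in the window, 108 H3K4me3 alone and 100 H3K27me3 alone, Nkx2-1, Mnx1, Tlx2 and Gata4 among the last. States below are those of the window.

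Protein-coding genes and lncRNAs differed in how often they were marked. Of 21938 protein-coding genes, 53.5% had H3K4me3 alone, 7.60% both marks, 2.89% H3K27me3 alone and 36.0% neither mark, and these shares are the background for families of protein-coding genes. Of 13374 lncRNA genes, 19.5% had H3K4me3 alone, 3.84% both marks, 4.67% H3K27me3 alone and 72.0% neither mark. LncRNAs held 625 of the 1259 genes with H3K27me3 alone and 513 of the 2180 with both marks.

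H3K4me3 was a promoter mark in NSCs, and H3K27me3 lay mostly elsewhere. H3K4me3 had 33292 called peaks that covered 37.8 Mb, 1.39% of the chromosomes, and 68.2% of those base pairs lay in promoter windows. H3K27me3 had 36069 called peaks that covered 25.7 Mb, 0.943% of the chromosomes, and 11.9% of its base pairs lay in promoter windows, which make up 4.64% of the chromosomes. H3K4me3 thus covered 20.4% of all promoter base pairs and H3K27me3 2.42%. Of the H3K4me3 peaks, 43.4% (42.9 to 44.0) touched a promoter window, and those that did had a median width of 1864 bp and a median fold enrichment of 7.71 over the background, against 253 bp and 3.91 for the others. Of the H3K27me3 peaks, 8.58% (8.29 to 8.87) touched a window, with a median width of 579 bp against 335 bp for the others and nearly the same median fold enrichment (3.80 against 3.77). The marks shared 3.03 Mb, which is 8.03% of the H3K4me3 and 11.8% of the H3K27me3 base pairs, and 31.7% of the shared base pairs lay in promoter windows.

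Widths differed at both ends of the range. H3K27me3 peaks had a median of 341 bp and 64.6% of them were under 500 bp, while the widest ran for 117916 bp. H3K4me3 peaks had a median of 553 bp and the widest ran for 38411 bp. At 10 kb or more there were 144 H3K27me3 peaks and 21 H3K4me3 peaks.

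H3K4me3 sat on the TSS, and H3K27me3 did not centre on it. Among genes with H3K4me3 alone, the share with the position inside an H3K4me3 peak was highest 200 bp after the TSS, at 88.9%, and was 11.5% at 2 kb before it. Among genes with both marks, H3K4me3 was again highest 200 bp after the TSS, at 72.1%. H3K27me3 at these genes was highest 1400 bp before the TSS, at 33.7%, and covered the TSS base itself at 25.2% of them. Among genes with H3K27me3 alone the profile was flat, with 18.7% at the TSS and a highest value of 21.05% at 2 kb after it.

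**Figure D1:**
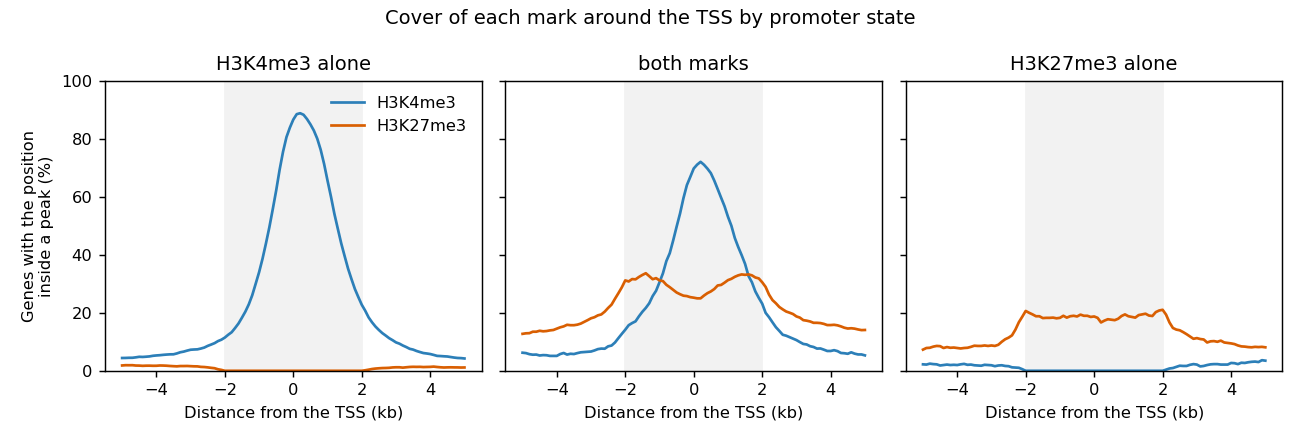
Share of genes (%) with each position inside a called peak of H3K4me3 (blue) or H3K27me3 (orange), by distance from the TSS in kb, for genes with H3K4me3 alone (14359), both marks (2180) and H3K27me3 alone (1259), with the promoter window shaded. H3K4me3 forms a single peak just after the TSS, while H3K27me3 is lower at the TSS than on either side of it at genes with both marks.

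Genes with both marks carried less H3K4me3 than genes with H3K4me3 alone. The median cover of the window was 1756.5 bp at genes with both marks and 2108 bp at genes with H3K4me3 alone, and the median of the highest H3K4me3 fold enrichment was 6.56 against 8.47. H3K27me3 went the other way. Its median cover was 663 bp where H3K4me3 was also present and 341 bp where it was not, and the widest H3K27me3 peak had a median width of 937 bp against 384 bp. H3K27me3 covered the whole window at 233 genes with both marks and at 57 genes with H3K27me3 alone.

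The 2180 genes with both marks ranged from broad domains to short called peaks. At 798 of them the widest H3K27me3 peak was under 500 bp, at 356 it was 500 bp to 1 kb, at 695 it was 1 to 5 kb, and at 331 it was 5 kb or wider. With short H3K27me3 peaks (under 500 bp), the TSS base lay in H3K4me3 at 70.2% of genes and in H3K27me3 at 3.38%, and 13.2% of the H3K4me3 base pairs in the windows were shared with H3K27me3. With peaks of 5 kb or wider, the TSS base lay in H3K27me3 at 87.6% of genes and in H3K4me3 at 47.1%, and 87.3% of the H3K4me3 base pairs were shared. The rise of H3K27me3 at the TSS base and of shared base pairs follows in large part from the split itself. A wider peak can cover more of the window, so this rise is no separate result. The median H3K4me3 cover was 1738.5, 2204, 1893 and 1118 bp from the narrowest to the widest class, so that it was lowest under the broad domains and highest in the class of 500 bp to 1 kb. The median H3K27me3 fold enrichment was 4.02 in the narrowest class and 4.94 in the widest, with 3.27 and 3.58 between them.

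**Figure D2:**
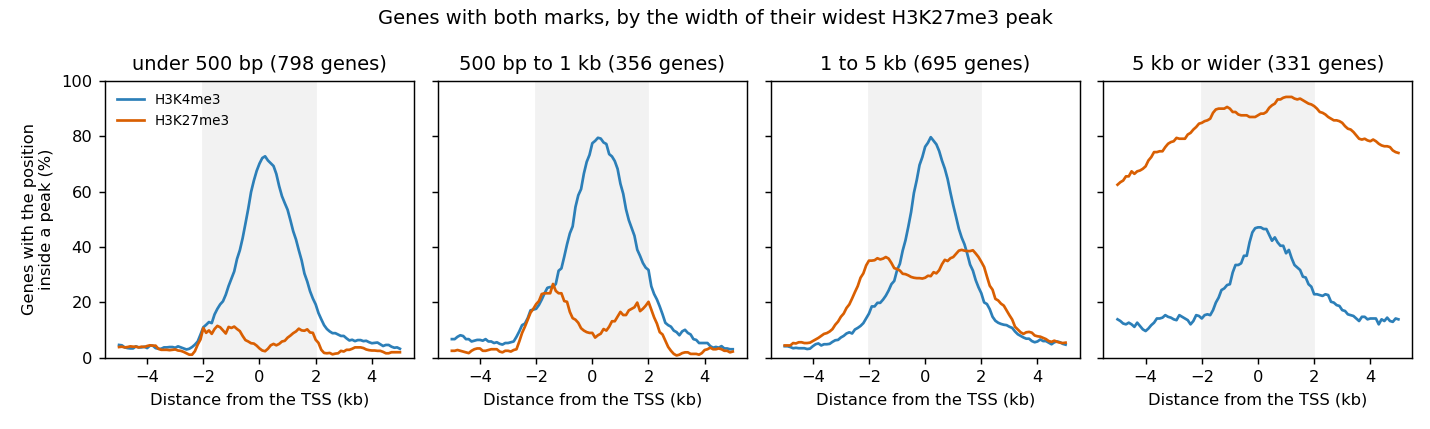
Share of genes with both marks (%) with each position inside a called peak of H3K4me3 (blue) or H3K27me3 (orange), by distance from the TSS in kb, in 4 panels by the width of the widest H3K27me3 peak at the gene. In the first 3 panels H3K27me3 dips at the TSS under the H3K4me3 peak, and in the 331 genes of the last panel it covers most positions on both sides while H3K4me3 stays below 50% of genes.

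Gene families were sorted into 6 groups of lists that hold 3799 genes in 48 families. H3K27me3, with or without H3K4me3, was found at 214 of 376 patterning transcription factor genes (56.9%, 51.7 to 62.0), at 36 of 179 signalling genes (20.1%, 14.501 to 26.739) and at 48 of 285 genes of neuronal function (16.8%, 12.7 to 21.7). It was found at 35 of 511 housekeeping genes (6.85%, 4.82 to 9.40), at 32 of 411 other chromatin and transcription genes (7.79%, 5.39 to 10.8) and at 131 of 2040 genes of tissue-restricted families (6.42%, 5.40 to 7.57). Across all genes the share was 9.74%, and across protein-coding genes 10.5%. H3K4me3 alone was found at 90.0% of the housekeeping genes and 29.5% of the patterning genes, and neither mark at 89.0% of the tissue-restricted genes. In the patterning lists 186 of the 214 genes with H3K27me3 had a peak of 1 kb or more, against 16 of 35 in the housekeeping lists and 37 of 131 in the tissue-restricted ones. H3K27me3 covered the whole window at 121 patterning genes, 1 signalling gene, 1 gene of neuronal function and no housekeeping gene.

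**Figure D3:**
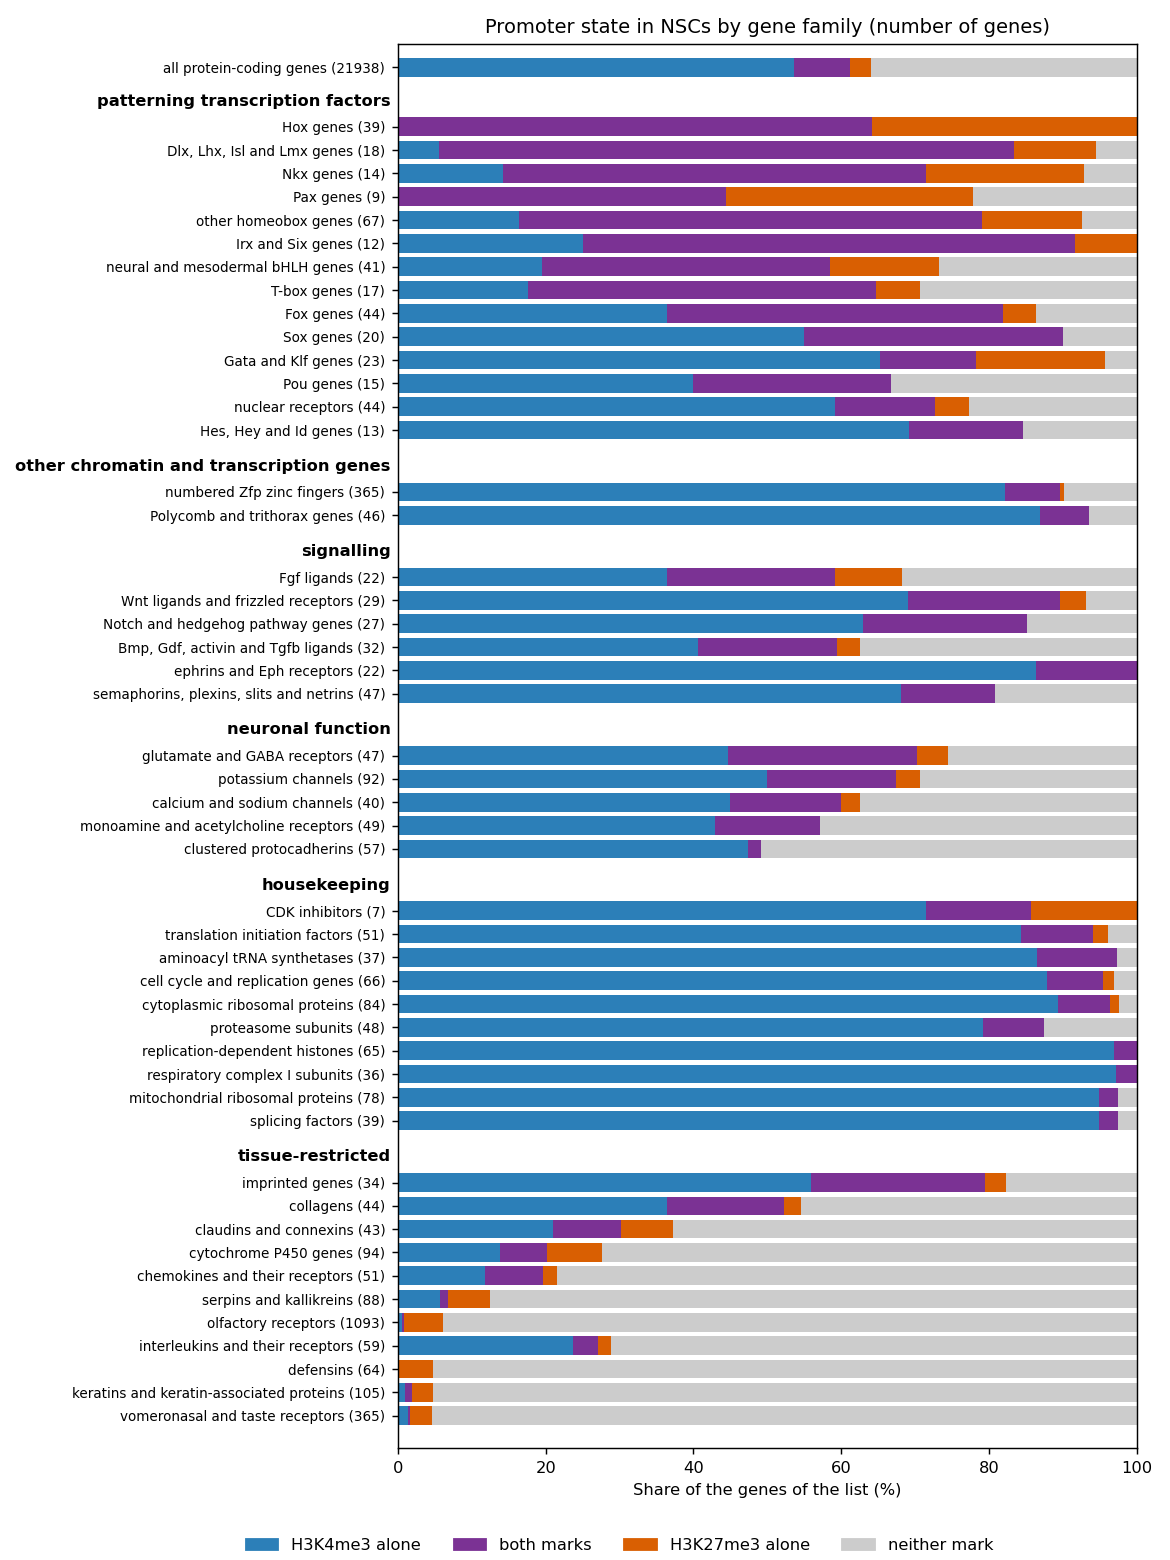
Share of the genes of each family (%) with H3K4me3 alone (blue), both marks (purple), H3K27me3 alone (orange) or neither mark (grey) in NSCs, with the number of genes in parentheses and all 21938 protein-coding genes at the top. The homeobox families other than the Pou genes are mostly purple and orange, and the housekeeping families mostly blue. The olfactory, vomeronasal and taste receptor, keratin and defensin families are mostly grey.

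The Hox genes, which set position along the body axis, all carried H3K27me3. Both marks were found at 25 of the 39 and H3K27me3 alone at the other 14. H3K27me3 covered the whole window at 34 of the 39 genes and the TSS base at 38. H3K4me3 was patchy beneath it, and covered from 87 to 1989 bp of the window (median 832 bp) at the 25 genes with both marks and the TSS base at 9 genes. Hoxa11 had 1461 bp of H3K4me3 with a fold enrichment of 8.37, and its neighbours Hoxa10 and Hoxa13 had none, although Hoxa10 had both marks with any annotated TSS. In the Hoxb cluster, Hoxb5 had 1160 bp with a fold enrichment of 9.38, Hoxb4 had 832 bp and Hoxb3 245 bp, while Hoxb6 had none. By cluster, both marks were found at 8 of 11 Hoxa, 7 of 10 Hoxb, 4 of 9 Hoxc and 6 of 9 Hoxd genes. Hoxd3 and Hoxd4, counted with H3K27me3 alone, had both marks with any annotated TSS, while Hoxd13 kept H3K27me3 alone. Of the 39 Hox genes none had H3K4me3 alone or neither mark.

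The wide H3K27me3 domains lay over these and other developmental regulators. Of the 144 domains of 10 kb or more, 109 held the TSS of a protein-coding gene. The TSS of a patterning transcription factor of the lists lay in 80, with 110 such genes in all. The 144 domains covered 2.94 Mb, 11.5% of the H3K27me3 base pairs. H3K4me3 covered 16.7% of that length, with a called peak in 142 of the 144. The widest ran over the Hoxa cluster from Hoxa2 to Hoxa13 (chr6:52161589-52279504, mm10) with a fold enrichment of 4.86, held 20 H3K4me3 peaks and had 10.1% of its length under H3K4me3. A domain of 74199 bp (chr2:74643479-74717677) held Evx2 and 8 Hoxd genes. Further domains of 66477 bp (chr15:102920157-102986633) and 42631 bp (chr11:96284610-96327240) held 6 Hoxc genes and Hoxb3 to Hoxb7. Outside the Hox clusters, Hand2, a heart and limb factor, lay in 47593 bp (chr8:57307345-57354937), and Gata4, a heart and endoderm factor, in 38993 bp (chr14:63234948-63273940). Pax3, a neural crest and muscle gene, lay in 31722 bp (chr1:78188440-78220161), and 32.3% of that domain was under H3K4me3, the highest share of the domains named in this paragraph.

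Not all wide domains lay over genes of the patterning lists. Of the 144, 64 held no TSS of a gene of these lists. The lists do not hold every developmental regulator, so the 64 are not a count of domains away from such regulators. No TSS of a protein-coding gene lay in 35 of the 144, and none of a protein-coding or lncRNA gene in 21. In 2 of the 144, H3K4me3 covered over 50% of the length. A domain of 87382 bp (chr8:123537901-123625282) held no TSS of a protein-coding or lncRNA gene, and 88.9% of it was also under H3K4me3. Genes of other types were not looked for in it. A called peak of 38379 bp at the start of chromosome 9 (chr9:3000023-3038401), over a run of predicted genes such as Gm10722, had a fold enrichment of 1.41, the lowest of all H3K27me3 peaks, and 99.9% of it was also under H3K4me3. The cause of this near-complete overlap was not tested.

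The Dlx, Lhx, Isl and Lmx genes, homeobox factors of forebrain and motor neuron subtypes, had both marks at 14 of 18 and H3K27me3 alone at 2. Dlx5 and Dlx6, which act in GABAergic interneurons, shared a domain of 29715 bp, with H3K4me3 over 308 bp of the window at Dlx5 and 1741 bp at Dlx6. Isl1, a motor neuron factor, had H3K4me3 over 2101 bp within a domain of 11967 bp. Lhx2, which acts in cortical progenitors, was the only member with H3K4me3 alone, over 1446 bp with a fold enrichment of 6.22, at its 5′-most TSS. With any annotated TSS, Lhx2 had both marks.

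The Nkx genes had both marks at 8 of 14, H3K27me3 alone at 3 and H3K4me3 alone at 2. Nkx2-2, which acts in ventral neural tube and oligodendrocyte differentiation, had H3K4me3 alone over 2233 bp with a fold enrichment of 5.58. Nkx2-1 had H3K27me3 over the whole window in a domain of 24859 bp and no H3K4me3, and Nkx6-1 had 2562 bp of H3K27me3 and no H3K4me3. Nkx2-5, a heart factor, had both marks, with 332 bp of H3K4me3 in a domain of 27929 bp.

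Of the 12 genes of the Irx and sine oculis-related homeobox families 8 had both marks, 1 had H3K27me3 alone and 3 had H3K4me3 alone. Irx1 combined 2414 bp of H3K4me3 with H3K27me3 over the whole window, whereas Six6, an eye field gene, had 1368 bp of H3K4me3 in a domain of 23876 bp. Of the 9 Pax genes 4 had both marks and 3 H3K27me3 alone. Pax2, a kidney and midbrain gene, lay in a domain of 24003 bp with no H3K4me3 at its 5′-most TSS, and had both marks with any annotated TSS. Pax6, a master gene of cortical progenitors and the eye, had neither mark at its 5′-most TSS, and H3K4me3 alone when any annotated TSS counted.

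The Pou3f and Pou4f genes named here differed in state. Pou3f2, Pou3f3 and Pou3f4, which act in neural progenitors and cortical neurons, had H3K4me3 alone over the whole window, in peaks of 15272, 21608 and 8244 bp. The sensory neuron factors Pou4f1, Pou4f2 and Pou4f3 had H3K27me3 over the whole window, in domains of 20128, 18113 and 10788 bp, together with 1560, 2802 and 452 bp of H3K4me3. Pou5f1, the pluripotency factor, had neither mark at its 5′-most TSS and H3K27me3 alone with any annotated TSS. Of all 15 Pou genes 6 had H3K4me3 alone, 4 both marks and 5 neither. The 4 with both marks include a gene outside the Pou4f subfamily that is not named here.

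The Sox genes had H3K4me3 alone at 11 of 20 and both marks at 7. Sox2, which maintains neural stem cells, had an H3K4me3 peak of 19212 bp with a fold enrichment of 9.84, and the peak of Sox9, which acts in glial specification, ran for 8502 bp. Sox3 and Sox11 also had H3K4me3 alone, over 4001 and 3601 bp of the window. Sox17, an endoderm and endothelial factor, had H3K27me3 over the whole window and 218 bp of H3K4me3. Sox14, of interneurons, had H3K27me3 over the whole window and 755 bp of H3K4me3. At the other members with both marks that were named, H3K27me3 was narrower, with 1042 bp at Sox4 and 486 bp at Sox7. Sox10, which drives oligodendrocyte differentiation, had 201 bp of H3K4me3 with a fold enrichment of 3.60 inside a 411 bp H3K27me3 peak with a fold enrichment of 5.61, neither of which reached the TSS.

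The list of other homeobox genes (67) also held the Zic zinc finger genes and did not hold every homeobox gene. Its members had both marks at 42, H3K27me3 alone at 9 and H3K4me3 alone at 11. Otx1, Zic2, Emx2 and Prox1, genes of forebrain and progenitor cells, were among those with H3K4me3 alone, over 4001, 3492, 3296 and 2854 bp, and of these Emx2 had both marks with any annotated TSS. Onecut2 and Dbx1, which act in spinal cord and other neurons, had both marks, with H3K27me3 over the whole window and 2816 and 1481 bp of H3K4me3. Pdx1, the pancreas gene, had 155 bp of H3K4me3 under whole-window H3K27me3. Tlx2, Alx1 and Mnx1 had H3K27me3 alone, over the whole window.

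The Fox genes had both marks at 20 of 44 and H3K4me3 alone at 16. Foxo3 and Foxo1, effectors of insulin signalling, and Foxm1, a regulator of mitosis, had H3K4me3 alone over 4001, 3716 and 3403 bp. Foxl2, an ovary gene, had both marks with 2538 bp of H3K4me3 in an H3K27me3 domain of 16209 bp, and Foxd3, a neural crest gene, had 322 bp of H3K4me3 in a domain of 20815 bp. Foxa2, of endoderm and floor plate, had H3K27me3 alone. The T-box genes had both marks at 8 of 17 and the Gata and Klf genes at 3 of 23. Tbr1, of early-born cortical neurons, had H3K27me3 alone over 289 bp of the window, from a peak of 4047 bp, and both marks with any annotated TSS. Gata2 and Gata6 had both marks, Gata3, Gata4 and Gata5 H3K27me3 alone and Gata1 neither. Gata3 had both marks with any annotated TSS. The Klf genes with the most H3K4me3 (Klf12, Klf10, Klf6 and Klf9) had H3K4me3 alone over 3388 to 4001 bp.

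The neural and mesodermal bHLH genes had both marks at 16 of 41, H3K27me3 alone at 6, H3K4me3 alone at 8 and neither at 11. Olig2, which specifies the oligodendrocyte lineage, had an H3K4me3 peak of 9688 bp over the whole window with a fold enrichment of 10.0, and Olig1 had H3K4me3 over 2312 bp, both without H3K27me3. The proneural genes Neurog1 and Atoh1 had H3K27me3 over the whole window with 300 and 2708 bp of H3K4me3. Tal1, of blood and endothelium, had both marks, with 1120 bp of H3K4me3. Among the Hes, Hey and Id genes, which hold progenitors undifferentiated downstream of Notch and BMP, 9 of 13 had H3K4me3 alone and 2 had both marks. Hes1 had H3K4me3 over 3265 bp with a fold enrichment of 12.8. Of the 44 nuclear receptor genes 26 had H3K4me3 alone and 6 both marks. Nr2f1 had an H3K4me3 peak of 11713 bp and no H3K27me3 at its 5′-most TSS, and both marks with any annotated TSS. Its relative Nr2f2 had H3K27me3 over the whole window with 2135 bp of H3K4me3.

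**Figure D4:**
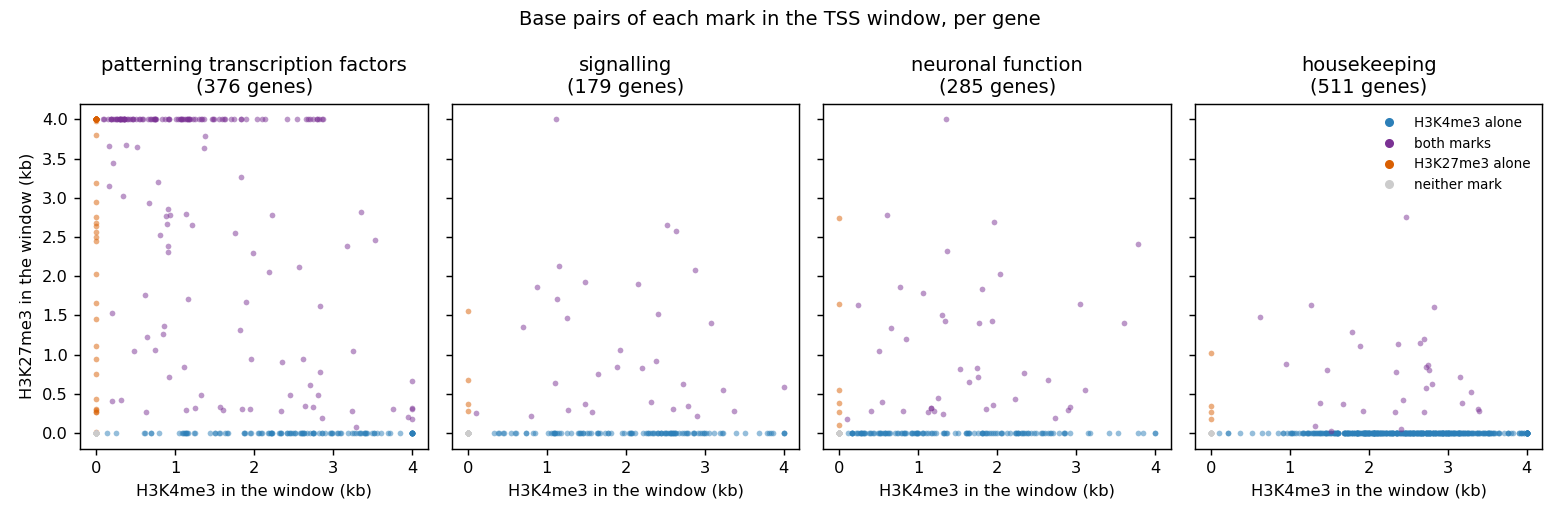
Base pairs of the promoter window under H3K4me3 (horizontal axis, kb) and H3K27me3 (vertical axis, kb) for each gene of 4 groups of lists, with 1 point per gene coloured by state, and points with the same values lying on each other. The row of points at the top of the first panel is formed by patterning genes whose whole window lay under H3K27me3, 121 of 376 genes, and most of the 511 housekeeping genes lie on the horizontal axis.

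Among other chromatin and transcription genes, 300 of 365 numbered Zfp genes had H3K4me3 alone and 27 both marks, a share of 7.40% that lies close to the 7.60% of all protein-coding genes. Of the 46 Polycomb and trithorax genes 40 had H3K4me3 alone. The H3K4 methyltransferase genes Kmt2c, Kmt2a and Setd1b had H3K4me3 over the whole window, and Kmt2a had both marks with any annotated TSS. Of the 3 members with both marks, Pcgf1, a Polycomb subunit, had 1065 bp of the 13905 bp domain of its neighbour Tlx2 in its window, Kdm5c, an H3K4 demethylase, had 1319 bp of H3K27me3, and Cbx2 had a peak of 287 bp. Yy1, a zinc finger factor outside these lists that the study names, had H3K4me3 alone over the whole window with a fold enrichment of 12.6.

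Signalling genes had H3K27me3 at a share above that of all genes. Its median cover at marked genes was 791 bp, against 4001 bp at patterning genes. The median width of the widest H3K27me3 peak at a marked gene was 1868 bp for Wnt and frizzled genes and 699 bp for Fgf ligands. It was 1713 bp for Bmp, Gdf, activin and Tgfb ligands. Across signalling families this median ranged from 568.5 bp (semaphorin, plexin, slit and netrin genes) to 2444 bp (ephrin and Eph receptor genes). Patterning families overlapped this range, from 486 bp at Sox genes to 66477 bp at Hox genes. Wnt1 and Wnt3a, ligands of the dorsal neural tube, had both marks, with 1933 and 1868 bp of H3K27me3 and 1481 and 883 bp of H3K4me3. Wnt7b, a ligand of the cortex, had H3K4me3 alone over 3201 bp. Fgf8, an organizer ligand of the anterior forebrain and midbrain, had both marks with 1057 bp of H3K27me3, and Fgf3 had H3K27me3 alone over 1560 bp. Gdf6 and Gdf7 had both marks, with 2575 and 1470 bp of H3K27me3. Shh, the ventralizing ligand, had both marks with 2156 bp of H3K4me3 and 1904 bp of H3K27me3, and Ihh had H3K27me3 over the whole window. The Notch ligand gene Jag1 and the pathway genes Maml2 and Sufu had H3K4me3 alone over 3686 to 4001 bp. Of the 22 ephrin and Eph receptor genes 19 had H3K4me3 alone and the other 3, Efna5, Efna3 and Epha6, had both marks. Of the 47 semaphorin, plexin, slit and netrin pathway genes 32 had H3K4me3 alone and 6 had both marks, among them Slit1 with 1358 bp of H3K27me3.

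Genes of neuronal function were split between H3K4me3 alone, both marks and neither mark. The share with both marks was 12 of 47 for glutamate and GABA receptor genes, 16 of 92 for potassium channel genes, 6 of 40 for calcium and sodium channel genes and 7 of 49 for monoamine and acetylcholine receptor genes. The AMPA receptor genes Gria2 and Gria4 had H3K4me3 alone over 2650 and 2576 bp. Drd2, the dopamine D2 receptor gene, had 658 bp of H3K4me3 and 1339 bp of H3K27me3. Kcnh3 was the member with the whole window under H3K27me3, in a domain of 7986 bp. Clustered protocadherin genes, which give neurons their surface identity, had H3K4me3 alone at 27 of 57 and neither mark at 29, and Pcdhga12 was the only member with H3K27me3, in a peak of 288 bp. Their first exons lie in tandem arrays, so that windows of neighbours overlap.

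Housekeeping families mostly had H3K4me3 alone. This was the state of 35 of 36 genes of respiratory complex I, 63 of 65 replication-dependent histone genes, 37 of 39 splicing factor genes, 74 of 78 mitochondrial and 75 of 84 cytoplasmic ribosomal protein genes. It was also that of 43 of 51 translation initiation factor, 32 of 37 aminoacyl tRNA synthetase, 58 of 66 cell cycle and 38 of 48 proteasome subunit genes, and 6 proteasome subunit genes had neither mark. The median fold enrichment of H3K4me3 in the 5 families named first was 7.51 at histone genes and 9.82 to 10.3 at the other 4, against 6.05 at the Hox genes with H3K4me3. Histone genes are repeated in clusters, so that neighbouring windows share called peaks and reads from near-identical copies cannot be assigned with certainty. The median H3K27me3 cover at housekeeping genes with the mark was 625 bp of the window, against 4001 bp at patterning genes with it. Rpl10 had a peak of 274 bp, Mrpl50 of 285 bp and Ndufb7 of 379 bp. Cdk6, a G1 kinase, was an exception in the cell cycle list, with 2750 bp of H3K27me3 beside H3K4me3 at a fold enrichment of 7.19.

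Cyclin-dependent kinase inhibitor genes, the brakes of the cell cycle, differed among themselves. Cdkn1b, Cdkn2c, Cdkn2d, Cdkn2b and Cdkn1c had H3K4me3 alone, and Cdkn1b had a peak of 11633 bp. Cdkn2a, the Ink4a/Arf locus and a known Polycomb target, had both marks, with 2823 bp of H3K4me3 at a fold enrichment of 12.7 and 1605 bp of an H3K27me3 domain of 7579 bp. Cdkn1a had H3K27me3 alone at its 5′-most TSS, in a peak of 344 bp, and both marks with any annotated TSS.

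Tissue-restricted families mostly had neither mark. Olfactory, vomeronasal and taste receptor genes, 1093 and 365 of the 2040, make up most of this group. This was the case for 1026 of 1093 olfactory receptor genes, 348 of 365 vomeronasal and taste receptor genes, 100 of 105 keratin and keratin-associated genes and 61 of 64 defensin genes, but for 20 of 44 collagen and 6 of 34 imprinted genes. H3K27me3, with or without H3K4me3, was found at 61 of the olfactory receptor genes, 5.58% of the family, against 10.5% of all protein-coding genes. Among genes without H3K4me3, the share was 5.35% of olfactory receptor genes and 7.44% of protein-coding genes. The median widest H3K27me3 peak over the 61 olfactory receptor genes with the mark was 315 bp, and the widest cover was 1588 bp at Olfr814. These genes belong to a multigene family, and calls at near-identical copies are uncertain. Among cytochrome P450 genes, Cyp26a1, which degrades retinoic acid, had both marks with H3K27me3 over the whole window. Col2a1, the cartilage collagen, had both marks with 2304 bp of H3K27me3 and 1320 bp of H3K4me3. Cldn7 and Cldn3, epithelial tight junction genes, had H3K27me3 alone over 3363 and 3021 bp.

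Imprinted genes, which are expressed from a single parental allele, had H3K4me3 alone at 19 of 34, both marks at 8 and H3K27me3 alone at 1. Peg10 and Sgce share a divergent promoter, and both windows lay wholly under a peak of 4794 bp. Zdbf2 had H3K27me3 over the whole window in a domain of 13133 bp and 322 bp of H3K4me3, and Grb10 had 2977 bp of H3K27me3 and 1645 bp of H3K4me3. Igf2 had H3K27me3 alone at its 5′-most TSS, over 1592 bp of the window, and both marks with any annotated TSS.

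The widest H3K4me3 peaks at genes without H3K27me3 lay at genes that include several regulators of neural cells. The 10 protein-coding genes with the widest were Pou3f3 (21608 bp), Qk (20710 bp), Sox2 (19212 bp), Pou3f2 (15272 bp), Meis2 (12942 bp), Nr2f1 (11713 bp), Cdkn1b (11633 bp), Etv1 (11352 bp), Tnrc18 (10534 bp) and Irs2 (10362 bp). Qk encodes an RNA-binding protein needed for myelination, and Meis2 a homeobox cofactor of the forebrain.

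Markers of the cell types were set beside the label. H3K4me3 alone was frequent at both NSC and OPC markers, so these counts do not tell NSCs from OPCs. Over all protein-coding genes, 53.5% had H3K4me3 alone, 7.60% both marks, 2.89% H3K27me3 alone and 36.0% neither mark. Of 15 NSC markers 12 had H3K4me3 alone, among them Nes (3338 bp), Vim (3963 bp), Fabp7 (3834 bp), Hes5 (2097 bp) and Nr2e1 (3851 bp). Sox1 had both marks, with 3239 bp of H3K4me3 and a 279 bp H3K27me3 peak, and Pax6 and Notch1 had neither mark at the 5′-most TSS and H3K4me3 alone with any annotated TSS. All 8 microglia markers had neither mark. Of 11 OPC markers 8 had H3K4me3 alone, and Pdgfra had 854 bp at a fold enrichment of 3.91. Gpr17, a receptor of early oligodendrocytes that the study names, had neither mark.

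Of the 12 oligodendrocyte markers 5 had neither mark, among them Mag, Mog, Mobp and Opalin, beside 36.0% of all protein-coding genes. H3K4me3 alone was found at 4, over 873 bp at Mbp, 454 bp at Myrf, 545 bp at Cldn11 and 3011 bp at Cnp. Ugt8a, an enzyme of myelin lipid synthesis, had both marks with 2172 bp of H3K4me3 and 1145 bp of H3K27me3, and Enpp6 had H3K27me3 alone in a peak of 274 bp. Zfp488, a zinc finger factor of the lineage, also had both marks, with 1652 bp of H3K4me3 at a fold enrichment of 6.09 and a 298 bp H3K27me3 peak at 4.64. Of 13 neuron markers 6 had H3K4me3 alone, 2 both marks and 3 H3K27me3 alone. Among the genes of transmitter synthesis and transport in this list, Gad2 had 2201 bp of H3K27me3, Slc17a7 had 1948 bp, Slc32a1 had 2867 bp and Slc17a6 had 812 bp, and Gad2 and Slc17a7 also had H3K4me3. Gad1 had neither mark at its 5′-most TSS and H3K4me3 alone with any annotated TSS. Stmn2, a tubulin-binding growth gene, had H3K27me3 alone over 812 bp. Of the 7 endothelial markers Flt1 and Ocln had both marks with H3K27me3 over the whole window, 1 had H3K4me3 alone and 4 neither mark. H3K4me3 alone was found at 4 of 8 astrocyte, 2 of 7 mesenchymal and 1 of 8 liver and blood markers. Among 7 pluripotency markers Lin28a had both marks and Dppa3 and Dppa5a H3K27me3 alone, and among 8 germ cell markers Sycp1 had H3K27me3 alone. The lncRNA Crnde, which the study names, had H3K4me3 alone in a peak of 7321 bp. Crnde also met the bivalent definition of the study, through an overlap with H3K27me3 outside the window.

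The states differed in CpG content. A promoter was classed as CpG-rich (high) where an interval of 500 bp, from 500 bp before to 2 kb after the TSS, had a GC content of at least 55% and a ratio of observed to expected CpGs of at least 0.6, and as low where none reached a ratio of 0.4. The high class held 86.3% (85.8 to 86.9) of genes with H3K4me3 alone, 81.1% (79.4 to 82.8) with both marks, 13.3% (11.4 to 15.3) with H3K27me3 alone and 4.43% (4.13 to 4.74) with neither, against 42.8% of all genes. In the 250 bases before the TSS, over 12961 genes whose RefSeq start matched, the median number of CpGs was 16, 15, 3 and 3 in the same order, and 9 over all matched genes. Nkx2-1 and Mnx1, whose sequences are printed above, are thus unlike most genes with H3K27me3 alone.

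**Figure D5:**
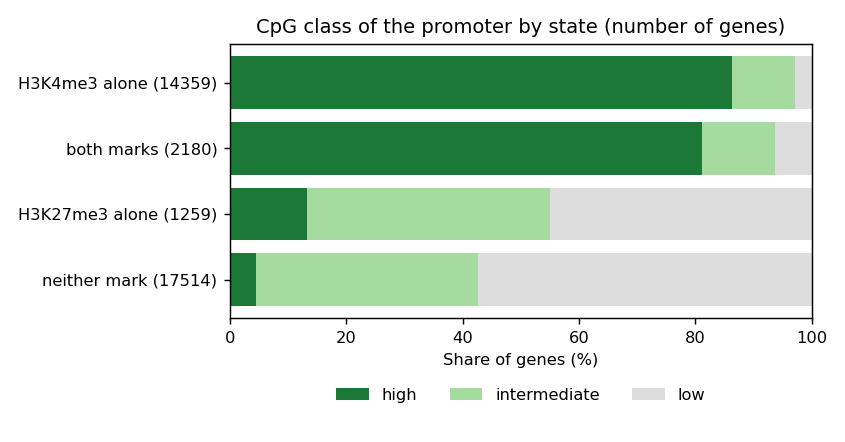
Share of genes (%) in the high, intermediate and low CpG class of the promoter for each of the 4 states, with the number of genes in parentheses. The high class holds 86.3% of genes with H3K4me3 alone and 81.1% of genes with both marks, against 13.3% with H3K27me3 alone and 4.43% with neither mark.

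Genes with H3K27me3 alone were themselves of different kinds by width. Where the widest H3K27me3 peak was under 500 bp (713 genes), 6.17% were in the high CpG class, and where it was 5 kb or wider (92 genes) 70.7% (60.2 to 79.7) were. Among genes with both marks, the high class held 76.4% (73.3 to 79.3) under 500 bp and 88.5% (84.6 to 91.7) at 5 kb or wider. Of the patterning genes, 93.4% with both marks and 76.6% with H3K27me3 alone were in the high class, against 29.4% with neither mark. Seen from the sequence, any H3K27me3 was found at 12.8% of genes of the high class, 8.85% of the intermediate and 6.30% of the low class.

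Position also differed between the states. A TSS on the opposite strand within 1 kb upstream, a divergent pair, was found for 18.2% of genes with H3K4me3 alone, 9.86% with both marks, 2.46% with H3K27me3 alone and 2.24% with neither, and for 9.20% of all genes. On the X chromosome 14.1% of genes (12.2 to 16.3) had H3K27me3, against 7.71 to 11.6% on the autosomes, and the highest autosomal interval, 10.2 to 13.2 on chromosome 4, overlapped that of X. H3K27me3 covered 1.15% of the base pairs of X and H3K4me3 0.659%. On the Y chromosome 9 of 744 genes had H3K4me3 and 0 had H3K27me3. By counting error alone, the latter allows a share of up to 0.495%. H3K4me3 was also rare on Y, at 1.21% of genes against 40.6 to 58.4% on the other chromosomes. Only unique reads were kept, and the sex of the NSCs is not known here. Whether peaks could be called at the genes of Y was not tested, so their 0 is not read as absence of H3K27me3.

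Transcript levels were at hand for few genes. The RPKM values listed beside the OLIG2 RIP-Seq sites (RIP-Seq sequences RNA bound by a protein) are from a library that is not stated. The Methods of the study name NSC RNA-Seq for the site calling, and the labels of the RIP-Seq libraries name NFOs. They covered 644 of the 35312 genes, chosen by a RIP-Seq site and not at random. With the highest RPKM over the transcripts of a gene, the median was 0.275 at 458 genes with H3K4me3 alone, 0.0936 at 64 with both marks, 0.00965 at 14 with H3K27me3 alone and 0.0249 at 108 with neither mark. A level above 1 RPKM was reached by 138 of the 458 genes with H3K4me3 alone, 12 of the 64 with both marks, 1 of the 14 with H3K27me3 alone and 7 of the 108 with neither mark.

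The width of H3K27me3 in NSCs went with its presence in the later cells. Of the 331 genes with both marks and an H3K27me3 peak of 5 kb or more in NSCs, 329 (99.4%, 97.8 to 99.9) had H3K27me3 in OPCs and 327 (98.8%, 96.9 to 99.7) in NFOs. Of the 798 with peaks under 500 bp, 338 (42.4%, 38.9 to 45.9) had it in OPCs and 189 (23.7%, 20.8 to 26.8) in NFOs. Over all genes the mark was found at 11.9% in OPCs and 7.03% in NFOs. Of all 2180 genes with both marks in NSCs, 945 had both in OPCs, 732 H3K4me3 alone, 324 H3K27me3 alone and 179 neither. The 39 Hox genes all had H3K27me3 in both later cell types, with both marks at 18 in OPCs and 20 in NFOs. Cell type cannot be told apart from library, age (E14.5 against postnatal day 7), mouse stock, culture against acute purification, or sequencing, since NSC reads were single-end and those of OPCs and NFOs paired.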

How the data were processed

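ChIP-Seq peak lists of H3K4me3 and H3K27me3 in NSCs, 1 library each, were analysed. The authors aligned reads to mm10 with Bowtie2, kept unique reads, called broad peaks in each library with MACS2 and removed blacklisted regions. Versions are not given in the sources used here. The deposited lists give each peak's fold enrichment (a ratio) and its p-value and q-value as −log10. They include peaks that miss the filter of the Methods (FDR below 0.05, fold enrichment above 3.5), up to an FDR of 0.0949, and all listed peaks were used. The authors' RPKM values came with the RIP-Seq lists, also deposited. Depth is unknown.

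Peaks on 21 chromosomes were intersected with promoter windows of GENCODE M21. CpG content was read from GRCm38.p6. State calling was tested on simulated peaks, and 2000 of 2000 genes were recovered. Members and gene lists were chosen with earlier results of these data known. Named genes were, per family and state, up to 4 with the most covered bp (all where 5 or fewer), the 10 widest per state, the cell type markers, genes the study names and those whose sequence is printed. Gm10722 falls outside this rule and was named after its value was seen. Some genes are not reported here. Alternatives changed the peak filter, TSS distance, overlap, peak width, TSS choice, gene set and CpG rule. Input DNA and OLIG2 libraries were not used here. Scripts ran under Python 3.11.15 with pandas 2.3.3, NumPy 2.4.6, Matplotlib 3.10.9 and SciPy 1.17.1.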

Additional observations from a re-analysis of the deposited data

How the results depend on the processing

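No paired analysis was possible because each mark has 1 library and no result comes from a test, and for the same reason no library could be left out. Under the filter of the Methods (fold enrichment above 3.5, FDR below 0.05), genes with both marks numbered 1321, H3K27me3 covered 15.0 Mb and the marks shared 1.67 Mb. With a fold enrichment above 5, both marks were left at 344 genes and H3K27me3 alone at 258, H3K27me3 covered 3.78 Mb, of which 0.774 Mb lay in promoter windows, and 0.393 Mb were shared. With a TSS distance of 1 kb, 1257 genes had both marks and 817 H3K27me3 alone, and with 5 kb 4580 and 2141. With H3K27me3 peaks of at least 1 kb alone, 1026 genes had both marks and 374 H3K27me3 alone. Protein-coding genes alone gave 634 genes with H3K27me3 alone and 7890 with neither mark. With a CpG ratio of at least 0.6 within 500 bp of the TSS as the rule, CpG-rich promoters made up 70.1%, 62.5%, 6.67% and 1.39% of genes with H3K4me3 alone, both marks, H3K27me3 alone and neither. Of the counts for families, 326 moved by over 1.5 times under an alternative and 682 did not. Of the patterning genes 51.3% had H3K27me3 under the filter of the Methods and 22.6% above a fold enrichment of 5, against 6.34% and 1.70% of all genes. Of the 331 genes with both marks and wide H3K27me3 domains, 282 kept both under the filter of the Methods, of the 695 with peaks of 1 to 5 kb, 344, and of the 1154 with peaks under 1 kb, 695. Since read numbers are not known, no precision can be given for a short or weak peak.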
